A study of Mus musculus with 12 samples.

Results

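Axon guidance ligands and receptors were followed across 4 populations of adipose precursor cells. The members were the rows of the count table whose gene symbol begins with the letters of a semaphorin of classes 3 to 7, a plexin, a netrin, a ROBO or UNC5 receptor, an ephrin or an Eph receptor, or is Slit1, Slit2 or Slit3. This rule found 70 of the 31099 rows. They were 36 ligand genes, 31 receptor genes and 3 rows caught by their letters alone, namely Unc50, Unc5cl and Plxna4os1. Of the 70 rows, 60 had enough reads to be tested, 59 of them ligands or receptors. The 10 left out averaged at most 0.592 CPM (reads of a gene scaled to a common library size) in their highest group.

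The 4 populations were PVAT preadipocytes, PVAT progenitors, IWAT ICAM1+ preadipocytes and IWAT DPP4+ progenitors, with 3 libraries each and 12 in all. PVAT is perivascular fat, taken with the aorta, and IWAT is inguinal white fat; the series concerns the lineage of thermogenic PVAT. All cells came from pups of CD-1, an outbred stock, at postnatal day 3, with the sexes mixed, and the labels give no allele or treatment. Each library is a pool of mice, and a library number marks 1 pool of individuals, from which both depots were taken. DPP4 and ICAM1 name the inguinal sorts, whereas no source used here names the markers of the perivascular sorts, so that depot and sort gate cannot be told apart.

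Guidance ligands steer growing axons and migrating cells by attraction or repulsion. Secreted class 3 semaphorins act mostly through neuropilins paired with plexins, the membrane-bound semaphorins mostly through plexins directly, SLITs through ROBOs, and netrins through DCC, neogenin and UNC5 receptors. Ephrins are held on the cell surface and bind Eph receptor tyrosine kinases on the neighbouring cell, so that signals can pass both ways. In fat, mesenchymal cells are a source of such cues for nerves and vessels.

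Library totals lay between 15614628 and 25674461 counts. Levels in CPM were scaled by TMM, a correction for differences in library composition, and a gene was called where the adjusted p of edgeR's quasi-likelihood test was under 0.05 over all 18855 genes tested. Changes are log2 fold changes, with the standard error (SE). Library 1 of the PVAT preadipocytes and library 1 of the PVAT progenitors stood apart from their groups: 11 and 10 of the 60 members tested differed at least 2-fold there from the mean of the other libraries of the group, against 0 in each ICAM1+ library and 1 in each DPP4+ library. Library 3 of the PVAT preadipocytes had 11 such members, all lower. Summed CPM of mesenchymal fibroblast markers, all 6 of them above 1 CPM in every group, ran from 34253 to 99813 in PVAT preadipocytes, from 131456 to 212031 in PVAT progenitors, from 169816 to 203244 in ICAM1+ preadipocytes and from 322035 to 378411 in DPP4+ progenitors. Adipocyte markers summed to between 1151 and 4222 CPM in PVAT preadipocytes, between 334 and 378 CPM in PVAT progenitors, between 564 and 657 CPM in ICAM1+ preadipocytes and between 133 and 330 CPM in DPP4+ progenitors. Fabp4 made up most of the ICAM1+ sum, averaging 568 CPM there and 243 CPM in PVAT progenitors. The other markers of this list, Adipoq, Plin1, Cidec and Lep, averaged lower in ICAM1+ preadipocytes than in PVAT progenitors, with Adipoq at 27.8 against 92.5 CPM. PVAT preadipocyte library 1 had the highest fibroblast marker sum of its group, 99813 CPM against 46214 and 34253 in libraries 2 and 3. Its adipocyte marker sum was the lowest of the group, 1151 CPM against 3494 and 4222. Mesothelial markers summed to between 33.3 and 78.2 CPM in PVAT preadipocytes and between 135 and 249 CPM in PVAT progenitors. The sums were 30.5 to 45.9 CPM in ICAM1+ preadipocytes and 37.7 to 38.7 CPM in DPP4+ progenitors. Of these 10 markers, 4 passed 1 CPM in each IWAT group. Krt8, Krt18 and Krt19 made up most of the ICAM1+ sum, averaging 11.5, 13.6 and 11.8 CPM there. Krt19 averaged 27.8 CPM in DPP4+ progenitors. These keratins were lower in PVAT preadipocytes, at 0.962, 2.61 and 5.1 CPM. The other mesothelial markers averaged higher in PVAT than in ICAM1+ preadipocytes, with Upk3b at 18.7 against 1.47 CPM and Wt1 at 5.86 against 0.102. Library 2 of the DPP4+ progenitors stood apart by other cell markers and not by the members, with 259 CPM of mast cell markers, against 57.9 and 49.0 in libraries 1 and 3, and 193 CPM of haematopoietic markers, against 68.1 and 57.9. The part of these differences in the results was not tested.

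Of the class 3 semaphorin genes, Sema3d, Sema3a, Sema3e and Sema3c lie on the same strand of a stretch of chromosome 5 and were lower in preadipocytes of at least 1 depot, so their promoter windows are shown here. On the mm10 build, with GENCODE M21 as the annotation, Sema3d spans chr5:12383385-12588948, Sema3a chr5:13125414-13602565, Sema3e chr5:14025276-14256689 and Sema3c chr5:17574281-17730268. The windows are RefSeq sequence on GRCm38.p6, the plus strand, from 250 bases before to 50 bases after the start of transcription, at chr5:12382916-12383215 for Sema3d, chr5:13396534-13396833 for Sema3a, chr5:14025026-14025325 for Sema3e and chr5:17574566-17574865 for Sema3c. The Sema3a window is that of a transcript start well inside the span of the gene, and which start these cells use was not tested. Capitals mark matches on either strand to a TATA box (TATAAA), a GC box (GGGCGG) or a CCAAT box (CCAAT), and none of the matches overlap.
Sema3d: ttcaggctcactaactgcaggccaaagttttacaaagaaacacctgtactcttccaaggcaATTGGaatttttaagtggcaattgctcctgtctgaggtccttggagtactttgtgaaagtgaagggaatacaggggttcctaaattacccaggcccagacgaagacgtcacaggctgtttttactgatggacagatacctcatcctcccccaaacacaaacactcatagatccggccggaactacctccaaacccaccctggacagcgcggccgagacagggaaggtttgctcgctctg
Sema3a: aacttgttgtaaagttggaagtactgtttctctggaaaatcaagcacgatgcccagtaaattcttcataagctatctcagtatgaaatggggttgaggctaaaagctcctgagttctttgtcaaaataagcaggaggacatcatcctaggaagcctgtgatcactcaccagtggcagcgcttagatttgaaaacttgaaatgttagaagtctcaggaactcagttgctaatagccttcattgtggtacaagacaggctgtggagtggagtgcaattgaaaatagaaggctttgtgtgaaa
Sema3e: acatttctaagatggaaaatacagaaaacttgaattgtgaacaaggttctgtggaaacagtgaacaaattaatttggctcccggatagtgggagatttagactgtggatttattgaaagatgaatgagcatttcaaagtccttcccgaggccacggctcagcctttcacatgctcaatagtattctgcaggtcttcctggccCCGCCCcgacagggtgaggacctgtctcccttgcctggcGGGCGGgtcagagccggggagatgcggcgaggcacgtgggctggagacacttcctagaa
Sema3c: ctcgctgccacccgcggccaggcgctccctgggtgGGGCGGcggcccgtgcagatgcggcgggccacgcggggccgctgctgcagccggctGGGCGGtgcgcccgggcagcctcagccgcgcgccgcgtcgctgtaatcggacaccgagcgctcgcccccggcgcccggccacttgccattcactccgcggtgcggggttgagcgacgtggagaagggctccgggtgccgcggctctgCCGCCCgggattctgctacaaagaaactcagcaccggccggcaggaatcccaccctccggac
The 4 windows are unlike in base composition. Sema3c has 42 CpG dinucleotides and 75.7% G or C, Sema3e has 11 and 50.7%, Sema3d has 8 and 49.7%, and Sema3a has 2 and 41.3%, beside a median of 7 CpG over 32851 mouse promoter windows. The GC box occurs 3 times in Sema3c and 2 times in Sema3e and is found in 35.7% of all windows. Sema3d has 1 CCAAT box, found in 37.4% of all windows, and no window of the 4 has a TATA box, found in 13.6%. A match is a run of letters and not a binding site.

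Among the 60 members tested, 45 were called in at least 1 of the 4 comparisons of 2 groups, 6 in all 4 and 15 in none. In PVAT progenitors against DPP4+ progenitors, 15 members were higher and 10 lower, 41.7% of the members, where 24.9% of all genes tested were called, 13.0% higher and 11.8% lower. In PVAT preadipocytes against ICAM1+ preadipocytes, 8 were higher and 20 lower, 46.7% of the members, close to the 44.9% of all genes called, of which 23.5% were higher and 21.4% lower. In PVAT preadipocytes against PVAT progenitors, 4 were higher and 19 lower, 38.3% of the members, where 32.9% of all genes were called, 16.8% higher and 16.1% lower. In ICAM1+ preadipocytes against DPP4+ progenitors, 9 were higher and 14 lower, again 38.3%, where 17.9% of all genes were called, 9.34% higher and 8.61% lower. The median log2 fold change of the members was 0.07, -0.20, -0.35 and 0.20 in these comparisons, in this order, beside 0.05, 0.04, -0.05 and 0.02 for all genes tested.

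Some of these counts move with the fit. With the pools as a block, 2 members and not 4 were higher in PVAT preadipocytes than in PVAT progenitors. Scaling by library totals instead of TMM gave 23 higher and 10 lower members for PVAT against DPP4+ progenitors, where 33.5% of all genes were then higher and 6.54% lower. It gave 18 higher and 13 lower for ICAM1+ against DPP4+ cells, with 23.1% of all genes higher and 4.86% lower. It gave 11 higher and 14 lower for PVAT against ICAM1+ preadipocytes, with 31.1% of all genes higher and 15.6% lower, and it moved the median of all genes to 0.48, 0.40 and 0.27 in these 3 comparisons. In a fit of PVAT preadipocytes and PVAT progenitors alone, 1 member was higher and 7 lower, with 9.18% of all genes higher and 7.0% lower.

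**Figure D1:**
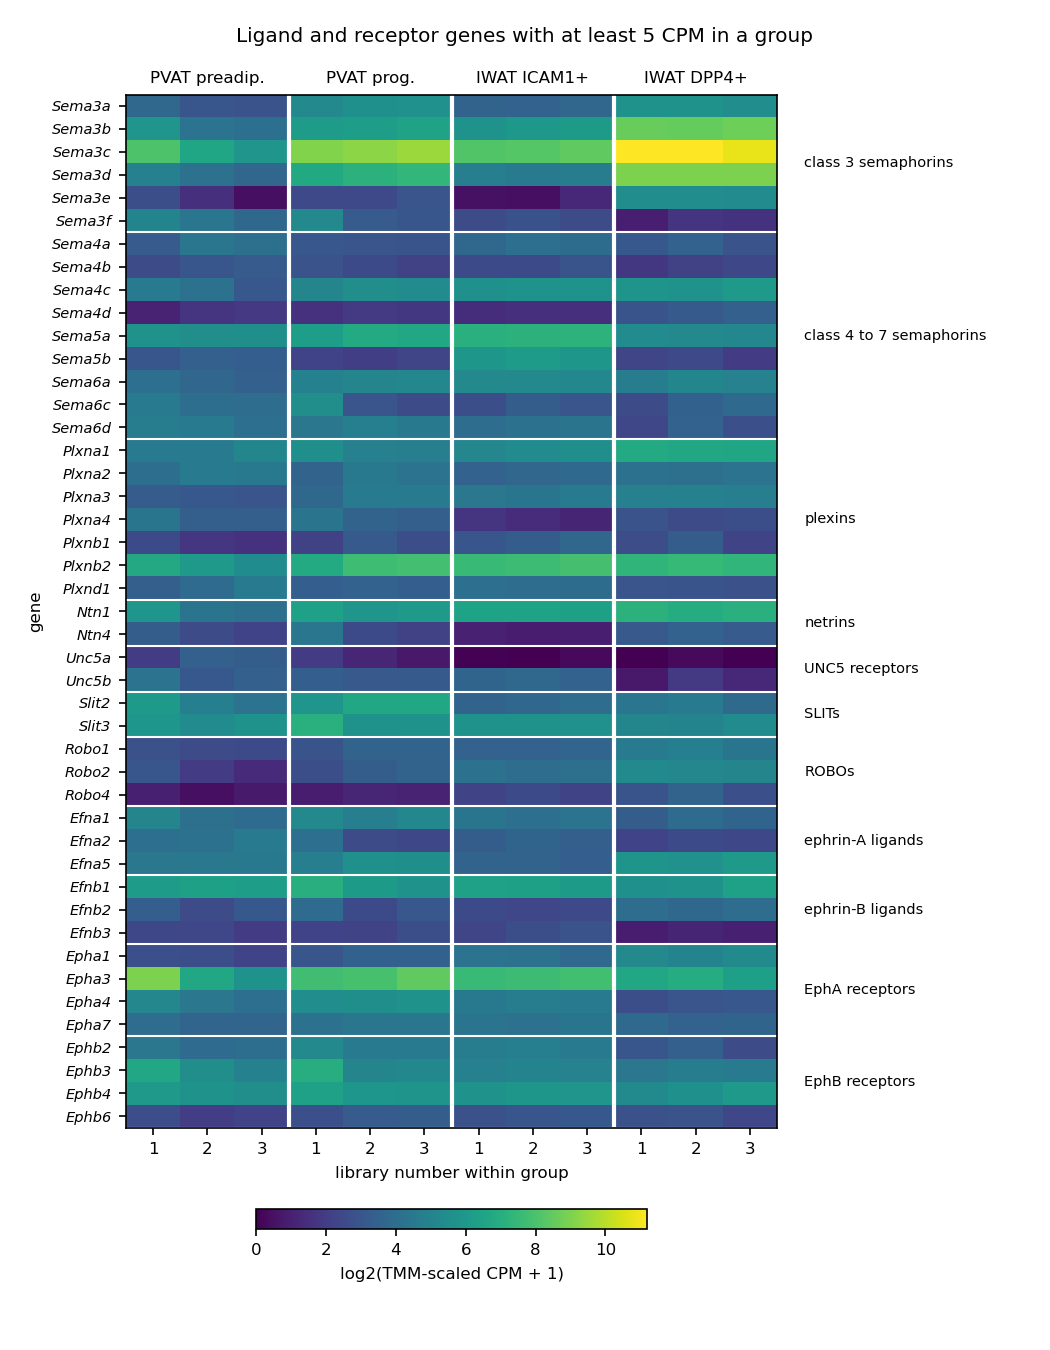
Level, as log2(CPM + 1) in colour, of each ligand or receptor gene with at least 5 CPM in its highest group (rows, by family) in each of the 12 libraries (columns, by group). Sema3b, Sema3c, Sema3d and Sema3e and the 3 ROBO rows have their highest group means in the DPP4+ libraries, where Sema3c reaches 2325 CPM.

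Class 3 semaphorins were the most abundant secreted guidance ligands here per exon length, and most were lower in preadipocytes than in progenitors of the same depot. All 7 genes were tested. In PVAT preadipocytes against PVAT progenitors 4 were lower and 0 higher, where 16.1% of all genes tested were lower and 16.8% higher. In ICAM1+ preadipocytes against DPP4+ progenitors 5 were lower and 0 higher, where 8.61% of all genes were lower and 9.34% higher. Summed over the family, the level was 33.5 ± 23.4 CPM per kb in PVAT preadipocytes, 128 ± 16.1 in PVAT progenitors, 61.6 ± 5.99 in ICAM1+ preadipocytes and 449 ± 36.4 in DPP4+ progenitors (SD, n = 3 each). Sema3c made up 57.9% to 70.7% of this sum in each group.

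Sema3c, best known for its part in the outflow tract of the heart, had 262, 98.1 and 55.6 CPM in PVAT preadipocytes, 540, 603 and 726 in PVAT progenitors, 285, 303 and 345 in ICAM1+ preadipocytes and 2300, 2325 and 1799 in DPP4+ progenitors. No PVAT preadipocyte library reached a PVAT progenitor library, and no ICAM1+ library reached a DPP4+ library. The log2 fold change between stages was -2.17 in PVAT (SE 0.42, adjusted p = 0.00264) and -2.78 in IWAT (SE 0.43, adjusted p = 0.000583). Between depots it was -1.78 in progenitors (SE 0.42, adjusted p = 0.00707) and -1.17 in preadipocytes (SE 0.41, adjusted p = 0.0347). The call in preadipocytes was lost without any of the ICAM1+ libraries or without PVAT preadipocyte library 2 or 3, with log2 values of -0.84 to -1.23 and adjusted p of 0.0593 to 0.13. It was also lost where library totals set the scale (-0.96, adjusted p = 0.0628) and with 2 groups alone (-1.23, adjusted p = 0.0686), and without PVAT preadipocyte library 1 the value was -2.07.

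Sema3d, which guides neural crest and vascular cells, had 29.6, 17.4 and 11.9 CPM in PVAT preadipocytes, 110, 144 and 170 in PVAT progenitors, 26.7, 23.9 and 24.9 in ICAM1+ preadipocytes and 500, 504 and 500 in DPP4+ progenitors. The DPP4+ libraries were all above every other library, and the preadipocytes of the 2 depots overlapped. The change between stages was -2.85 in PVAT (SE 0.28, adjusted p = 5.6e-05) and -4.32 in IWAT (SE 0.30, adjusted p = 1.05e-06). Between progenitors it was -1.83 (SE 0.27, adjusted p = 0.000282), and between preadipocytes -0.36 (SE 0.26, adjusted p = 0.287), which became -0.84 (adjusted p = 0.00508) without PVAT preadipocyte library 1.

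Sema3e, a ligand that binds plexin D1 without a neuropilin, had 5.41, 1.91 and 0.375 CPM in PVAT preadipocytes, 4.49, 4.61 and 6.71 in PVAT progenitors, 0.429, 0.387 and 1.34 in ICAM1+ preadipocytes and 43.2, 43.4 and 41.7 in DPP4+ progenitors. It was high in the DPP4+ libraries and low in the other 9. The change in IWAT was -5.90 (SE 0.72, adjusted p = 9.87e-05), and between progenitors of the depots it was -3.02 (SE 0.60, adjusted p = 0.00269). Between preadipocytes it was 1.85 (SE 0.70, adjusted p = 0.0461), and this call was lost in 9 of the 12 fits that left out 1 library. It was 0.64 without PVAT preadipocyte library 1 (adjusted p = 0.403), and 1.75 with the pools as a block (adjusted p = 0.0862).

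Sema3a, the classical repellent of sensory axons, had 12.3, 6.89 and 6.22 CPM in PVAT preadipocytes, 37.6, 48.0 and 49.9 in PVAT progenitors, 10.7, 10.4 and 11.8 in ICAM1+ preadipocytes and 50.8, 51.8 and 43.4 in DPP4+ progenitors. Its levels split by stage, and the depots overlapped at both stages. Between preadipocytes the overlap came from PVAT preadipocyte library 1. Sema3a was not called there in the main fit, but without that library it was lower in PVAT (-0.80, adjusted p = 0.00327). The change was -2.41 in PVAT (SE 0.24, adjusted p = 5.6e-05) and -2.15 in IWAT (SE 0.23, adjusted p = 4.15e-05). The difference between these changes was -0.26 (SE 0.32, adjusted p = 0.609).

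Sema3b and Sema3f lie close together on chromosome 9 and differed in direction between progenitors. Sema3b had 55.8, 18.4 and 16.0 CPM in PVAT preadipocytes, 72.1, 75.0 and 85.3 in PVAT progenitors, 50.6, 60.6 and 66.4 in ICAM1+ preadipocytes and 378, 371 and 421 in DPP4+ progenitors, a log2 fold change of -2.33 between progenitors (SE 0.37, adjusted p = 0.000566). Sema3f, a ligand that prefers neuropilin 2, had 31.9, 19.9 and 12.3 CPM in PVAT preadipocytes, 37.8, 8.35 and 6.87 in PVAT progenitors, 5.09, 6.04 and 4.93 in ICAM1+ preadipocytes and 0.929, 2.28 and 2.13 in DPP4+ progenitors. Every PVAT library was above every IWAT library for Sema3f. The change was 3.32 between progenitors (SE 0.65, adjusted p = 0.00228), or 2.10 without PVAT progenitor library 1 (adjusted p = 0.00178), and 1.99 between preadipocytes (SE 0.58, adjusted p = 0.0143), which lost its call without ICAM1+ library 3 (1.94, adjusted p = 0.0522).

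**Figure D2:**
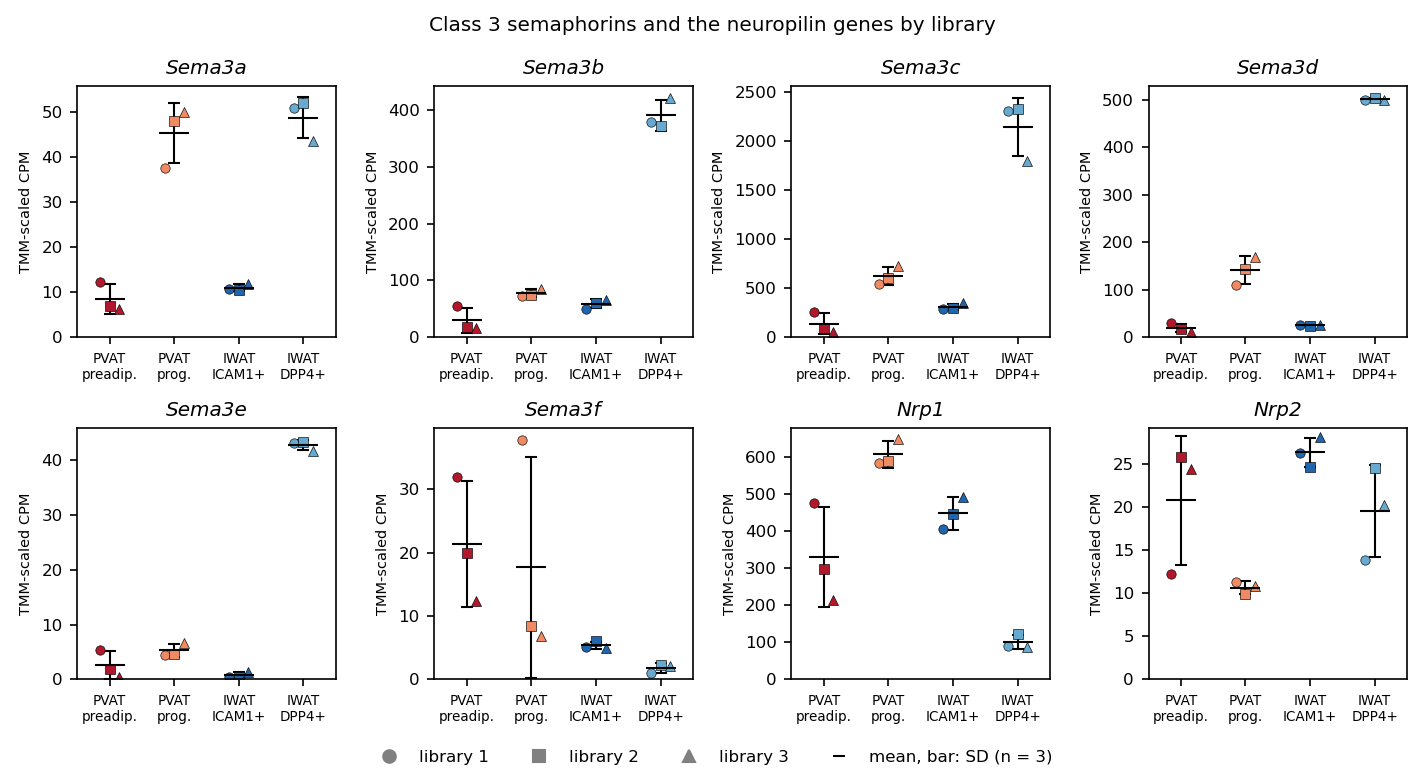
CPM (TMM-scaled, linear axis) of class 3 semaphorin genes and neuropilins in each library, by group, with the mean and SD of 3 libraries. The DPP4+ libraries are the highest for Sema3c, Sema3d and Sema3e and the lowest for Nrp1.

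Nrp1, the neuropilin that is a coreceptor for Sema3a and for VEGF, ran against the ligands in IWAT. It had 478, 298 and 214 CPM in PVAT preadipocytes, 586, 590 and 651 in PVAT progenitors, 406, 447 and 494 in ICAM1+ preadipocytes and 89.9, 123 and 88.3 in DPP4+ progenitors. The DPP4+ libraries were the lowest of all. It was higher in PVAT than in DPP4+ progenitors (2.60, SE 0.26, adjusted p = 1.4e-05) and in ICAM1+ than in DPP4+ cells (2.16, SE 0.26, adjusted p = 7.55e-05). In PVAT the change was -0.88 (SE 0.25, adjusted p = 0.0166), a call lost without PVAT preadipocyte library 2 (-0.82, adjusted p = 0.0663) or PVAT progenitor library 3 (-0.83, adjusted p = 0.0554). The difference of the changes between depots was -3.04 (SE 0.35, adjusted p = 0.0002). Between preadipocytes of the depots Nrp1 was not called in the main fit. Without PVAT preadipocyte library 1 it was lower in PVAT (-0.87, adjusted p = 0.0022).

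Nrp2, the neuropilin that prefers Sema3f, had 12.2, 25.8 and 24.4 CPM in PVAT preadipocytes, 11.3, 9.90 and 10.8 in PVAT progenitors, 26.3, 24.7 and 28.1 in ICAM1+ preadipocytes and 13.9, 24.5 and 20.2 in DPP4+ progenitors. The PVAT progenitors were the lowest in every library. Against them, PVAT preadipocytes were higher by 0.97 (SE 0.27, adjusted p = 0.016), lost in 3 of the 12 fits without 1 library, namely PVAT preadipocyte 2 or 3 or PVAT progenitor 2 (adjusted p of 0.0592 to 0.0789). PVAT progenitors were lower than DPP4+ progenitors (log2 -0.88, SE 0.27, adjusted p = 0.0309), lost without PVAT progenitor library 2 or 3 or DPP4+ library 2 or 3 (adjusted p of 0.07 to 0.131) and where library totals set the scale (-0.45, adjusted p = 0.22).

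Of the membrane-bound and other semaphorins of classes 4 to 7, 12 were tested. Of these, 2 were higher and 1 lower in PVAT against DPP4+ progenitors, where 13.0% of all genes tested were higher and 11.8% lower. In PVAT against ICAM1+ preadipocytes 0 were higher and 6 lower, beside 23.5% and 21.4% of all genes. Between stages, 2 were higher and 3 lower in PVAT preadipocytes, beside 16.8% and 16.1% of all genes. In ICAM1+ preadipocytes 3 were higher and 1 lower, beside 9.34% and 8.61%.

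Sema5b, a repellent in the nervous system, was highest in the ICAM1+ libraries. It had 6.93, 9.88 and 9.23 CPM in PVAT preadipocytes, 3.72, 3.17 and 4.06 in PVAT progenitors, 60, 71.8 and 59.5 in ICAM1+ preadipocytes and 4.07, 4.56 and 2.95 in DPP4+ progenitors. The 3 ICAM1+ libraries stood above the other 9. The change in IWAT was 4.04 (SE 0.22, adjusted p = 1.54e-07) and in PVAT 1.25 (SE 0.20, adjusted p = 0.00102), and PVAT preadipocytes differed from ICAM1+ preadipocytes by -2.88 (SE 0.20, adjusted p = 9.3e-07). The 10 Schwann and neural markers, of which 8, 7, 8 and 8 passed 1 CPM in these groups, summed to between 31.6 and 43.8 CPM in PVAT preadipocytes, 45.3 and 54.6 CPM in PVAT progenitors, 161 and 182 CPM in ICAM1+ preadipocytes and 84.4 and 145 CPM in DPP4+ progenitors. Of these markers 1, Th, was at 0 in the ICAM1+ and the DPP4+ libraries. Sox10, the transcription factor of the glial lineage, had 0.0983, 0.391 and 0.322 CPM in PVAT preadipocytes, 0.413, 0.173 and 0.271 in PVAT progenitors, 3.62, 4.26 and 2.42 in ICAM1+ preadipocytes and 0.857, 2.13 and 0.820 in DPP4+ progenitors. Mbp, a myelin gene, made up the largest part of the sum in the ICAM1+ libraries, at 75.2, 88.0 and 73.0 CPM. The neuronal markers Stmn2, Elavl4 and Th were not higher there, and Stmn2 averaged 3.36 ± 1.21 CPM in PVAT preadipocytes and 1.21 ± 0.450 CPM in ICAM1+ preadipocytes (SD, n = 3 each). Tubb3 and Erbb3 had their highest means in DPP4+ progenitors. The part of these markers in the Sema5b values was not tested, and in these bulk libraries fewer cells of a type and less RNA per cell cannot be told apart.

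Sema5a, its paralog, had 50.6, 45.1 and 46.5 CPM in PVAT preadipocytes, 75.6, 114 and 103 in PVAT progenitors, 138, 143 and 150 in ICAM1+ preadipocytes and 41.4, 37.8 and 35.3 in DPP4+ progenitors. The order of the stages was opposite in the depots, with no overlap in either. The change was -1.04 in PVAT (SE 0.15, adjusted p = 0.000646) and 1.91 in IWAT (SE 0.16, adjusted p = 4.6e-06). Their difference was -2.95 (SE 0.22, adjusted p = 7.98e-06).

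Sema6a, a transmembrane ligand of A-type plexins, had 16.0, 11.8 and 9.82 CPM in PVAT preadipocytes, 29.3, 33.4 and 34.9 in PVAT progenitors, 37.2, 37.2 and 36.7 in ICAM1+ preadipocytes and 25.3, 33.6 and 29.9 in DPP4+ progenitors. Only the PVAT preadipocytes stood apart, below the other 9 libraries, by -1.37 against PVAT progenitors (SE 0.18, adjusted p = 0.000388) and -1.56 against ICAM1+ preadipocytes (SE 0.18, adjusted p = 5.1e-05). Sema4c, a plexin B2 ligand, had 23.6, 17.3 and 7.30 CPM in PVAT preadipocytes, 33.1, 45.7 and 41.5 in PVAT progenitors, 47.9, 50.3 and 51.4 in ICAM1+ preadipocytes and 54.6, 52.9 and 64.5 in DPP4+ progenitors. It too was lowest in PVAT preadipocytes, by -1.32 against PVAT progenitors (SE 0.31, adjusted p = 0.00686) and -1.63 against ICAM1+ preadipocytes (SE 0.31, adjusted p = 0.00118).

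Sema6d and Sema4d differed mainly in the DPP4+ libraries. Sema6d, a ligand of plexin A1, averaged 21.6 ± 4.68 CPM in PVAT preadipocytes, 23.3 ± 3.37 in PVAT progenitors, 16.9 ± 1.73 in ICAM1+ preadipocytes and 6.71 ± 3.21 in DPP4+ progenitors (SD, n = 3 each), and was higher in PVAT than in DPP4+ progenitors (1.80, SE 0.29, adjusted p = 0.000627). Sema4d, a plexin B1 ligand, averaged 2.02 ± 0.824 CPM in PVAT preadipocytes, 2.42 ± 0.379 in PVAT progenitors, 1.79 ± 0.0717 in ICAM1+ preadipocytes and 8.18 ± 1.68 in DPP4+ progenitors (SD, n = 3 each), and was lower in PVAT than in DPP4+ progenitors (-1.75, SE 0.31, adjusted p = 0.00112). Sema6c had 44.4, 6.79 and 4.92 CPM in PVAT progenitors and 5.14, 10.2 and 13.2 in DPP4+ progenitors, so its fold change of 0.98 (SE 0.66, adjusted p = 0.313) took its sign from PVAT progenitor library 1 and was -0.70 without it.

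All 9 plexin genes were tested. In PVAT against ICAM1+ preadipocytes 2 were higher and 4 lower, where 23.5% of all genes tested were higher and 21.4% lower. In PVAT against DPP4+ progenitors 2 were higher and 1 lower, beside 13.0% and 11.8% of all genes. Between stages 0 were higher and 2 lower in PVAT preadipocytes, beside 16.8% and 16.1% of all genes. In ICAM1+ preadipocytes 1 was higher and 2 lower, beside 9.34% and 8.61%. Plxnb2 was the most abundant plexin per kb of exon in each group, with 50.8% to 69.2% of the family's summed CPM per kb.

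Plxnb2, a receptor for class 4 semaphorins, had 106, 66.1 and 42.1 CPM in PVAT preadipocytes, 114, 208 and 228 in PVAT progenitors, 183, 205 and 235 in ICAM1+ preadipocytes and 159, 179 and 163 in DPP4+ progenitors. All PVAT preadipocyte libraries were below the others. The change was -1.36 against PVAT progenitors (SE 0.31, adjusted p = 0.006) and -1.54 against ICAM1+ preadipocytes (SE 0.31, adjusted p = 0.00172). Plxna3, a partner of neuropilin 2, was also lowest in PVAT preadipocytes, at 7.56 ± 0.902 CPM there, 20.1 ± 6.37 in PVAT progenitors, 21.4 ± 2.59 in ICAM1+ preadipocytes and 28.2 ± 1.32 in DPP4+ progenitors (SD, n = 3 each).

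Plxna4, a partner of neuropilin 1 in Sema3a signalling, had 19.2, 9.39 and 9.60 CPM in PVAT preadipocytes, 18.9, 10.7 and 9.47 in PVAT progenitors, 2.27, 1.70 and 1.23 in ICAM1+ preadipocytes and 6.22, 4.86 and 5.5 in DPP4+ progenitors. Every PVAT library was above every IWAT library. The change was 2.88 between preadipocytes (SE 0.37, adjusted p = 9.16e-05) and 1.23 between progenitors (SE 0.35, adjusted p = 0.0197), the second lost without PVAT progenitor library 1 (0.86, adjusted p = 0.0746) or DPP4+ library 2 or 3 (1.15 and 1.24, adjusted p = 0.0738 and 0.0607). Plxna1 had 24.0, 22.7 and 33.7 CPM in PVAT preadipocytes, 45.9, 28.7 and 26.7 in PVAT progenitors, 35.4, 40.8 and 46.4 in ICAM1+ preadipocytes and 114, 104 and 95.4 in DPP4+ progenitors, and was lower in PVAT than in DPP4+ progenitors (-1.63, SE 0.22, adjusted p = 0.000169). Plxnd1, the Sema3e receptor, was higher in ICAM1+ preadipocytes than in DPP4+ progenitors, at 15 ± 0.785 CPM against 6.25 ± 0.464 CPM (SD, n = 3 each; 2.4-fold by the fit, adjusted p = 0.00534), where Sema3e was lower.

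Of the 3 genes of the SLIT ligands, 2 were higher and 0 lower in PVAT against DPP4+ progenitors, and 1 was higher and 0 lower in PVAT against ICAM1+ preadipocytes. Slit1, which stayed between 0.483 and 1.64 CPM, was the one not called in either (-0.65, SE 0.35, adjusted p = 0.204 between progenitors and -0.49, SE 0.35, adjusted p = 0.268 between preadipocytes). Of the 4 ROBO genes, 3 were tested, and all 3 were lower in PVAT in both depot comparisons. The fourth, Robo3, had a group mean of at most 0.592 CPM. Beside these counts, 13.0% of all genes tested were higher and 11.8% lower between progenitors, and 23.5% and 21.4% between preadipocytes.

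Slit2, a ligand that repels axons and has been linked to thermogenic fat in mice, lies at chr5:47983138-48307733 (mm10). It had 65.8, 27.0 and 18.2 CPM in PVAT preadipocytes, 56.4, 103 and 104 in PVAT progenitors, 10.9, 12.9 and 15.2 in ICAM1+ preadipocytes and 19.7, 23.0 and 13.8 in DPP4+ progenitors. The depots did not overlap at either stage, and PVAT preadipocyte library 1 was far above libraries 2 and 3. The change was 2.22 between progenitors (SE 0.41, adjusted p = 0.00173) and 1.51 between preadipocytes (SE 0.41, adjusted p = 0.00965), and without PVAT preadipocyte library 1 the second was 0.74 (adjusted p = 0.0607). Slit3 averaged 79.8 ± 49.2 CPM in PVAT progenitors and 35.9 ± 4.38 CPM in DPP4+ progenitors (SD, n = 3 each), with 137 CPM in PVAT progenitor library 1. Its call (1.15, SE 0.32, adjusted p = 0.0181) was lost without DPP4+ library 1 or 2 (1.13 and 1.09, adjusted p = 0.0624 and 0.0685). Without PVAT progenitor library 1 the value was 0.51 and the call stood.

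Robo1 and Robo2, the main neuronal SLIT receptors, were highest in DPP4+ progenitors. Robo2, at chr16:73891839-74411825 (mm10), had 6.93, 2.98 and 1.61 CPM in PVAT preadipocytes, 5.52, 8.81 and 10.7 in PVAT progenitors, 17.4, 15.2 and 16.3 in ICAM1+ preadipocytes and 38.6, 35.0 and 33.1 in DPP4+ progenitors. Every PVAT library was below every IWAT library. The change was -2.09 between progenitors (SE 0.39, adjusted p = 0.00174) and -2.08 between preadipocytes (SE 0.40, adjusted p = 0.0013). Robo1 had 5.85, 5.04 and 4.67 CPM in PVAT preadipocytes, 6.5, 10.7 and 10.9 in PVAT progenitors, 10.3, 10.5 and 11.7 in ICAM1+ preadipocytes and 24.0, 27.3 and 19.1 in DPP4+ progenitors. It changed by -1.33 between progenitors (SE 0.22, adjusted p = 0.000756) and by -1.06 between preadipocytes (SE 0.22, adjusted p = 0.00233), and between stages by -1.12 in IWAT (SE 0.22, adjusted p = 0.00313).

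Robo4, the endothelial member of the family, had 0.983, 0.391 and 0.751 CPM in PVAT preadipocytes, 0.878, 1.27 and 1.14 in PVAT progenitors, 3.92, 4.68 and 3.86 in ICAM1+ preadipocytes and 6.5, 10.9 and 5.66 in DPP4+ progenitors. The PVAT libraries were all below the IWAT libraries, by -2.81 between progenitors (SE 0.35, adjusted p = 7.73e-05) and -2.54 between preadipocytes (SE 0.36, adjusted p = 0.000164). All 9 endothelial markers passed 1 CPM in each group, and they summed to between 76.1 and 119 CPM in PVAT preadipocytes, 229 and 364 CPM in PVAT progenitors, 170 and 209 CPM in ICAM1+ preadipocytes and 777 and 990 CPM in DPP4+ progenitors. Cdh5, the junction protein that defines endothelium, averaged 2.03 ± 0.843 CPM in PVAT preadipocytes, 3.97 ± 1.72 in PVAT progenitors, 8.43 ± 1.80 in ICAM1+ preadipocytes and 11.4 ± 5.10 in DPP4+ progenitors (SD, n = 3 each). In the DPP4+ libraries Tek made up 615 to 730 CPM of that sum. Not every marker was lower in PVAT. Vwf averaged 68.4 ± 34.0 CPM in PVAT progenitors against 23.7 ± 8.0 in DPP4+ progenitors, and 24.0 ± 5.23 CPM in PVAT preadipocytes against 12.4 ± 4.91 in ICAM1+ preadipocytes (SD, n = 3 each). Egfl7 averaged 14.7 ± 4.94 CPM in PVAT preadipocytes against 8.82 ± 0.643 in ICAM1+ preadipocytes (SD, n = 3 each). The part of these markers in the Robo4 values was not tested.

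Among the netrins, 4 of 5 genes were tested, and between preadipocytes of the depots 1 was higher in PVAT and 1 lower. Over all genes tested, 23.5% were higher there and 21.4% lower. Ntn1, the founding attractant for commissural axons, had 56, 18.8 and 16.7 CPM in PVAT preadipocytes, 83.4, 55.9 and 64.2 in PVAT progenitors, 87.7, 87.7 and 81.5 in ICAM1+ preadipocytes and 144, 121 and 137 in DPP4+ progenitors. Every PVAT library was below every DPP4+ library. The change between preadipocytes was -1.49 (SE 0.36, adjusted p = 0.00565), or -2.32 without PVAT preadipocyte library 1, and between progenitors -0.98 (SE 0.36, adjusted p = 0.0632), which passed with the pools as a block (-1.01, adjusted p = 0.0336). Ntn4, a netrin of basement membranes, had 8.80, 5.04 and 3.70 CPM in PVAT preadipocytes, 20.0, 4.72 and 3.68 in PVAT progenitors, 1.04, 0.813 and 0.925 in ICAM1+ preadipocytes and 7.79, 10.6 and 8.37 in DPP4+ progenitors. The ICAM1+ libraries were the lowest, by 2.66 for PVAT preadipocytes over them (SE 0.60, adjusted p = 0.00359) and by -3.27 for them over DPP4+ progenitors (SE 0.61, adjusted p = 0.00224).

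Of the 4 UNC5 netrin receptor genes, 3 were tested, and Unc5a and Unc5b were higher in PVAT than in DPP4+ progenitors. Unc5a, at chr13:54949411-55006018 (mm10), had 3.00, 9.63 and 8.80 CPM in PVAT preadipocytes, 2.99, 1.27 and 0.703 in PVAT progenitors, 0.0613, 0 and 0.206 in ICAM1+ preadipocytes and 0, 0.228 and 0 in DPP4+ progenitors. It was close to absent from the IWAT libraries. The 3 libraries of a group held 422 reads in PVAT preadipocytes, 93 in PVAT progenitors, 5 in ICAM1+ preadipocytes and 3 in DPP4+ progenitors. Between progenitors the ratio of summed counts, each relative to library size, was 22.1, with an exact 95% interval of 7.33 to 109 that covers counting error only, and the call had an adjusted p of 0.00929. Between preadipocytes the fitted change was 6.32 (SE 0.91, adjusted p = 0.000186), a size that rests on 5 reads. In PVAT the stages differed by 2.10 (SE 0.64, adjusted p = 0.0248), but this was lost with the pools as a block (2.08, adjusted p = 0.0609) and without PVAT preadipocyte library 2 or 3 or PVAT progenitor library 2 or 3 (1.73 to 1.91, adjusted p of 0.0743 to 0.0961).

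Unc5b, which is also a vascular receptor, had 18.1, 7.58 and 9.66 CPM in PVAT preadipocytes, 9.14, 7.66 and 7.95 in PVAT progenitors, 11.2, 12.2 and 10.5 in ICAM1+ preadipocytes and 0.714, 2.73 and 1.48 in DPP4+ progenitors. Only the DPP4+ libraries stood apart, at the low end. PVAT progenitors were higher than they were by 2.33 (SE 0.41, adjusted p = 0.00123), and ICAM1+ preadipocytes by 2.79 (SE 0.42, adjusted p = 0.000439). Neo1, the DCC-related netrin receptor, had 60.4, 41.4 and 34.2 CPM in PVAT preadipocytes, 84.2, 38.7 and 37.1 in PVAT progenitors, 31.8, 32.1 and 26.7 in ICAM1+ preadipocytes and 51.7, 54.1 and 54.5 in DPP4+ progenitors, and was called in none of the 4 comparisons. Its ICAM1+ and DPP4+ libraries did not overlap, and several other fits called it lower in ICAM1+ than in DPP4+ cells. Among these were the pools as a block (-0.84, adjusted p = 0.0367), DESeq2 (-0.85, adjusted p = 0.0349), limma voom (-0.80, adjusted p = 0.0006) and 2 groups alone (-0.84, adjusted p = 5.3e-05). Dcc itself stayed between 0 and 3.79 CPM in all 12 libraries. It was called higher in PVAT between progenitors and between preadipocytes, and these calls were lost in 4 and 3 of the 12 fits that left out 1 library.

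**Figure D3:**
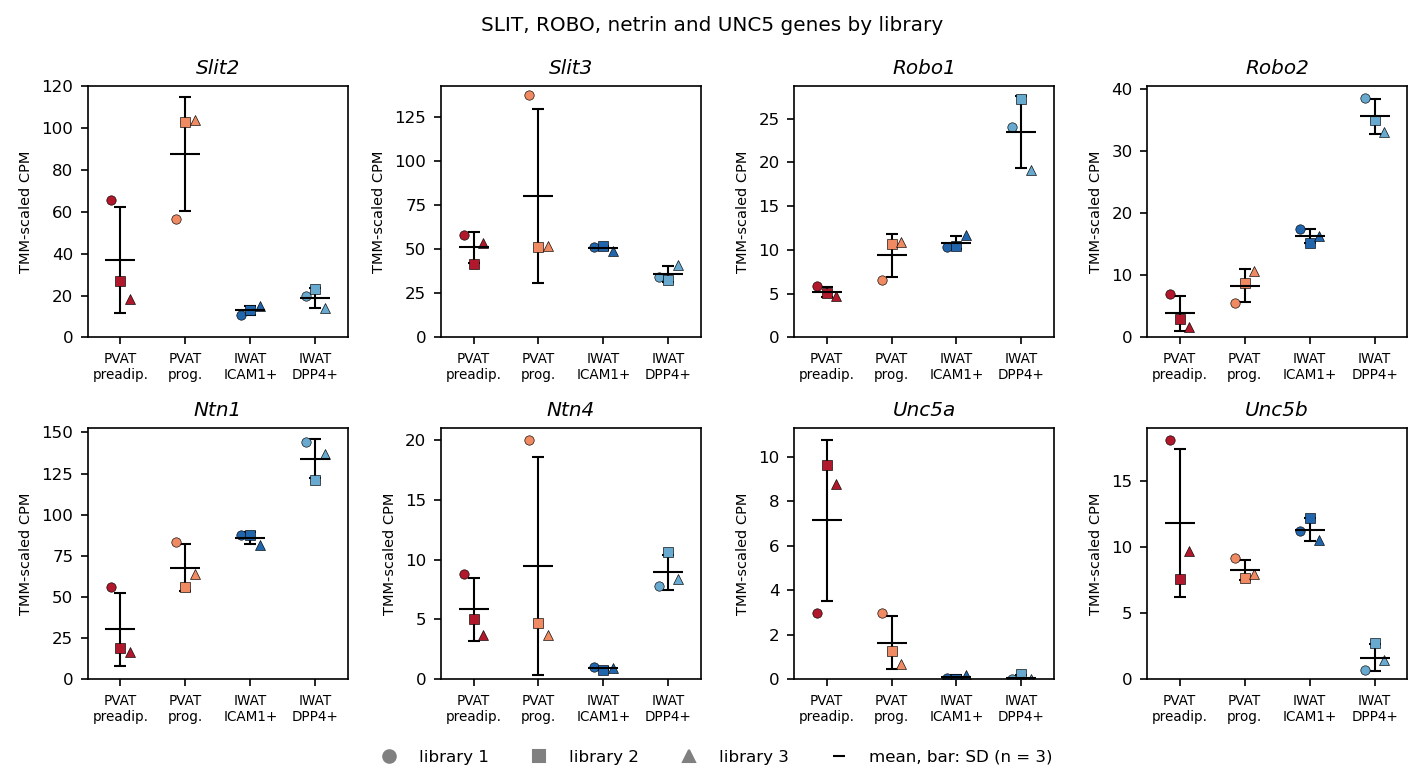
CPM (TMM-scaled, linear axis) of SLIT, ROBO, netrin and UNC5 genes in each library, by group, with the mean and SD of 3 libraries, the bars being clipped at 0. Within each stage Slit2 and Unc5a are higher in the PVAT libraries, and Robo1 and Robo2 are highest in the DPP4+ libraries.

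Among the ephrin ligands, 4 of 5 ephrin-A and 3 of 3 ephrin-B genes were tested. For ephrin-A genes 1 was higher and 0 lower in PVAT in each depot comparison, and 1 ephrin-B gene was higher in PVAT between progenitors. In PVAT preadipocytes against PVAT progenitors, 1 ephrin-A gene was higher and 1 lower. The higher one, Efna2, lost its call in 10 of the 12 fits that left out 1 library and with 2 groups alone (1.21, adjusted p = 0.12). In ICAM1+ against DPP4+ cells, 1 ephrin-A gene was lower, and 1 ephrin-B gene was higher and 1 lower. Of all genes tested, 13.0% were higher and 11.8% lower between progenitors, and 23.5% and 21.4% between preadipocytes. Between stages these shares were 16.8% and 16.1% in PVAT, and 9.34% and 8.61% in IWAT. Efna5, a repellent for retinal and cortical axons, had 20.5, 21.3 and 22.0 CPM in PVAT preadipocytes, 26.9, 48.1 and 45.8 in PVAT progenitors, 10.8, 10.9 and 9.20 in ICAM1+ preadipocytes and 53.8, 49.4 and 64.1 in DPP4+ progenitors. The groups did not overlap. The change between stages was -0.92 in PVAT (SE 0.20, adjusted p = 0.00505) and -2.43 in IWAT (SE 0.21, adjusted p = 6.81e-06), with a difference of 1.51 (SE 0.29, adjusted p = 0.00457).

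Efna1, an ephrin first found in endothelium, had 33.5, 16.3 and 14 CPM in PVAT preadipocytes, 37.0, 26.9 and 35.8 in PVAT progenitors, 19.4, 15.8 and 17.9 in ICAM1+ preadipocytes and 8.93, 14 and 11.3 in DPP4+ progenitors. The progenitors of the depots did not overlap (1.54, SE 0.30, adjusted p = 0.00232), and the preadipocytes did. Efnb3, a midline repellent, had 4.33, 4.16 and 3.00 CPM in PVAT preadipocytes, 3.72, 3.91 and 5.41 in PVAT progenitors, 3.98, 5.38 and 6.32 in ICAM1+ preadipocytes and 0.857, 1.21 and 0.984 in DPP4+ progenitors. It was low in the DPP4+ libraries alone, by 2.09 for PVAT progenitors over them (SE 0.30, adjusted p = 0.00022) and 2.36 for ICAM1+ preadipocytes over them (SE 0.29, adjusted p = 0.000114). Efnb1, whose level per kb was the highest of the ephrins in PVAT preadipocytes at 22.2 CPM per kb, was called in none of the 4 comparisons. In progenitors it had 131, 68.1 and 53.0 CPM in PVAT and 47.7, 53.4 and 84.1 CPM in DPP4+ libraries. These overlapped (0.45, SE 0.29, adjusted p = 0.302), and the change was -0.03 without PVAT progenitor library 1, whose level was the highest, and 0.90 with library totals as the scale, which called it (adjusted p = 0.029).

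Of the Eph receptor genes, 6 of 9 EphA and 5 of 5 EphB were tested. In PVAT against DPP4+ progenitors 2 EphA genes were higher and 1 lower, and 2 EphB genes were higher and 0 lower. In PVAT against ICAM1+ preadipocytes 0 EphA genes were higher and 3 lower, and 0 EphB genes were higher and 1 lower. Of all genes tested, 13.0% were higher and 11.8% lower in the progenitor comparison, and 23.5% and 21.4% in the preadipocyte comparison.

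Epha4, a receptor that binds both ephrin classes and lies at chr1:77367185-77515088 (mm10), had 35.0, 20.3 and 16.2 CPM in PVAT preadipocytes, 43.6, 45.9 and 50.4 in PVAT progenitors, 22.1, 25.6 and 23.9 in ICAM1+ preadipocytes and 5.43, 6.61 and 7.14 in DPP4+ progenitors. PVAT progenitors were the highest and DPP4+ progenitors the lowest, without overlap with the other groups. The depots differed by 2.87 in progenitors (SE 0.26, adjusted p = 5.48e-06). Between stages the change was -0.97 in PVAT (SE 0.24, adjusted p = 0.00865) and 1.90 in IWAT (SE 0.25, adjusted p = 0.000174).

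Ephb2, a receptor of B-type ephrins, had 20.4, 14 and 15.4 CPM in PVAT preadipocytes, 37.4, 24.1 and 24.4 in PVAT progenitors, 24.6, 27.0 and 23.1 in ICAM1+ preadipocytes and 6.93, 9.64 and 5.0 in DPP4+ progenitors. As with Epha4, the DPP4+ libraries were the lowest, by 1.99 for PVAT progenitors over them (SE 0.26, adjusted p = 0.000116) and 1.79 for ICAM1+ preadipocytes over them (SE 0.26, adjusted p = 0.000345). In PVAT the change was -0.79 (SE 0.25, adjusted p = 0.0277), lost without PVAT progenitor library 1 (-0.60, adjusted p = 0.0526) or PVAT preadipocyte library 2 or 3 (-0.69 and -0.76, adjusted p = 0.103 and 0.0749).

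Epha1 ran the other way from Epha4 between progenitors of the depots and between stages in IWAT. Between stages in PVAT both genes were lower in preadipocytes. Epha1 had 5.70, 5.38 and 3.70 CPM in PVAT preadipocytes, 7.02, 10.1 and 10.1 in PVAT progenitors, 17.9, 17.3 and 13.1 in ICAM1+ preadipocytes and 37.9, 32.2 and 39.9 in DPP4+ progenitors. The groups did not overlap, and Epha1 was called in all 4 comparisons. PVAT was lower, with log2 changes of -2.02 in progenitors (SE 0.22, adjusted p = 2.74e-05) and -1.70 in preadipocytes (SE 0.22, adjusted p = 9.51e-05), and preadipocytes were lower, with changes of -0.87 in PVAT (SE 0.22, adjusted p = 0.01) and -1.19 in IWAT (SE 0.21, adjusted p = 0.00164).

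Epha3 had the highest mean level per kb of the Eph receptors in PVAT preadipocytes, at 25.2 ± 28.5 CPM per kb (SD, n = 3), but it cannot be ordered there. Its PVAT preadipocyte libraries had 504, 103 and 50.4 CPM, the PVAT progenitors 213, 244 and 354, the ICAM1+ preadipocytes 184, 202 and 221 and the DPP4+ progenitors 102, 122 and 78.3. The PVAT preadipocytes reached both the highest and the lowest value of the 12 libraries. Against ICAM1+ preadipocytes the change was 0.12 (SE 0.59, adjusted p = 0.886), and without PVAT preadipocyte library 1 it was -1.45 (adjusted p = 0.00249). Against PVAT progenitors it was -0.30 (SE 0.59, adjusted p = 0.728), and -1.86 without the same library (adjusted p = 0.000677). The DPP4+ libraries did not overlap the PVAT progenitor or the ICAM1+ libraries. Neither difference was called in the main fit. With 2 groups alone both were, at 1.45 for PVAT over DPP4+ progenitors (adjusted p = 0.00445) and 0.99 for ICAM1+ over DPP4+ cells (adjusted p = 0.000195).

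Ephb3 also rested on library 1 in PVAT. It had 104, 45.7 and 29.4 CPM in PVAT preadipocytes, 123, 33.0 and 36.1 in PVAT progenitors, 28.4, 32.0 and 29.7 in ICAM1+ preadipocytes and 20.9, 24.7 and 22.5 in DPP4+ progenitors. Its call between progenitors (1.5, SE 0.50, adjusted p = 0.0451) was lost in 8 of the 12 fits that left out 1 library and with the pools as a block (1.24, adjusted p = 0.0583), and without PVAT progenitor library 1 the value was 0.60 (adjusted p = 0.272).

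**Figure D4:**
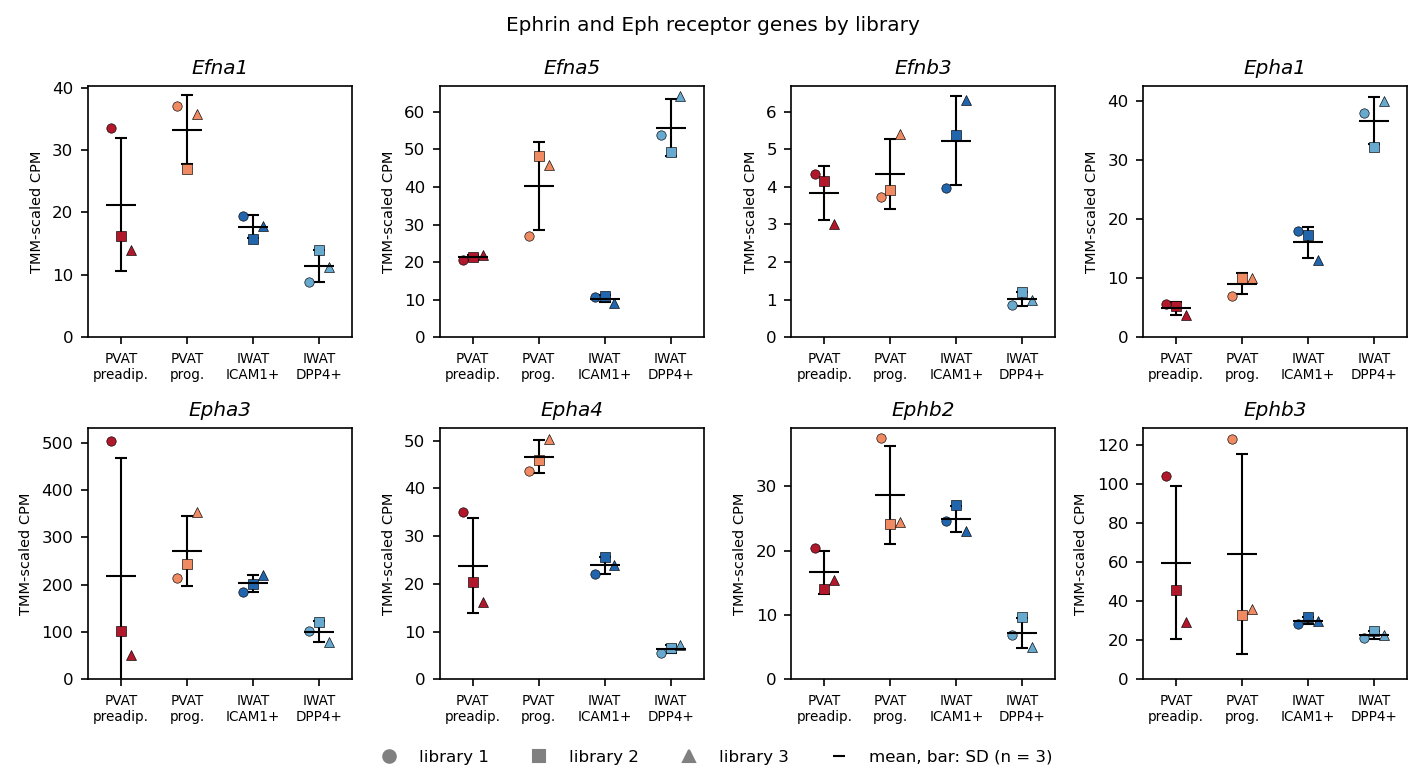
CPM (TMM-scaled, linear axis) of ephrin and Eph receptor genes in each library, by group, with the mean and SD of 3 libraries, the bars being clipped at 0. Epha4, Ephb2 and Efnb3 are lowest in the DPP4+ libraries, and Epha3 and Ephb3 have a single high library in PVAT preadipocytes.

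The depots were then compared in how the stages differed, as the change in PVAT minus the change in IWAT. Of the 60 members tested, 7 were higher and 12 lower, 31.7% of the members, where 15% of all genes tested were called, 6.37% higher and 8.66% lower. The median over the members was -0.48 and over all genes 0.00. On simulated counts this comparison found 57.9% of 4-fold changes, fewer than the 84.2% to 92.6% found in the comparisons of 2 groups, and of 2-fold changes it found 2.86%, against 27.6% to 35.2%, so a member that was not called may still differ. The simulation changed 200 genes, whereas 2834 genes were called in this comparison, so its shares found need not hold for the real fits.

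Of the genes with a negative value, Sema5a, Epha4, Epha7, Ephb2, Efnb3, Unc5b and Sema6d had their lowest group mean in DPP4+ progenitors. Sema6a, Plxnb2, Plxna3 and Ephb6 had theirs in PVAT preadipocytes, and Sema5b in PVAT progenitors. Sema5a (-2.95), Epha4 (-2.87), Sema5b (-2.79), Ephb2 (-2.58), Efnb3 (-2.54) and Unc5b (-2.27) had the largest negative differences on the log2 scale. Of these 6, Sema5a, Epha4 and Ephb2 were lower in PVAT preadipocytes than in PVAT progenitors and higher in ICAM1+ than in DPP4+ cells, each called. The genes with a positive value included Sema3e (4.87) and Sema3d (1.47), which were lower in ICAM1+ than in DPP4+ cells by more than in PVAT. For Sema3d the call was lost without PVAT progenitor library 2 (1.47, adjusted p = 0.05) or ICAM1+ library 2 or 3 (1.43 and 1.46, adjusted p = 0.0582 and 0.054).

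**Figure D5:**
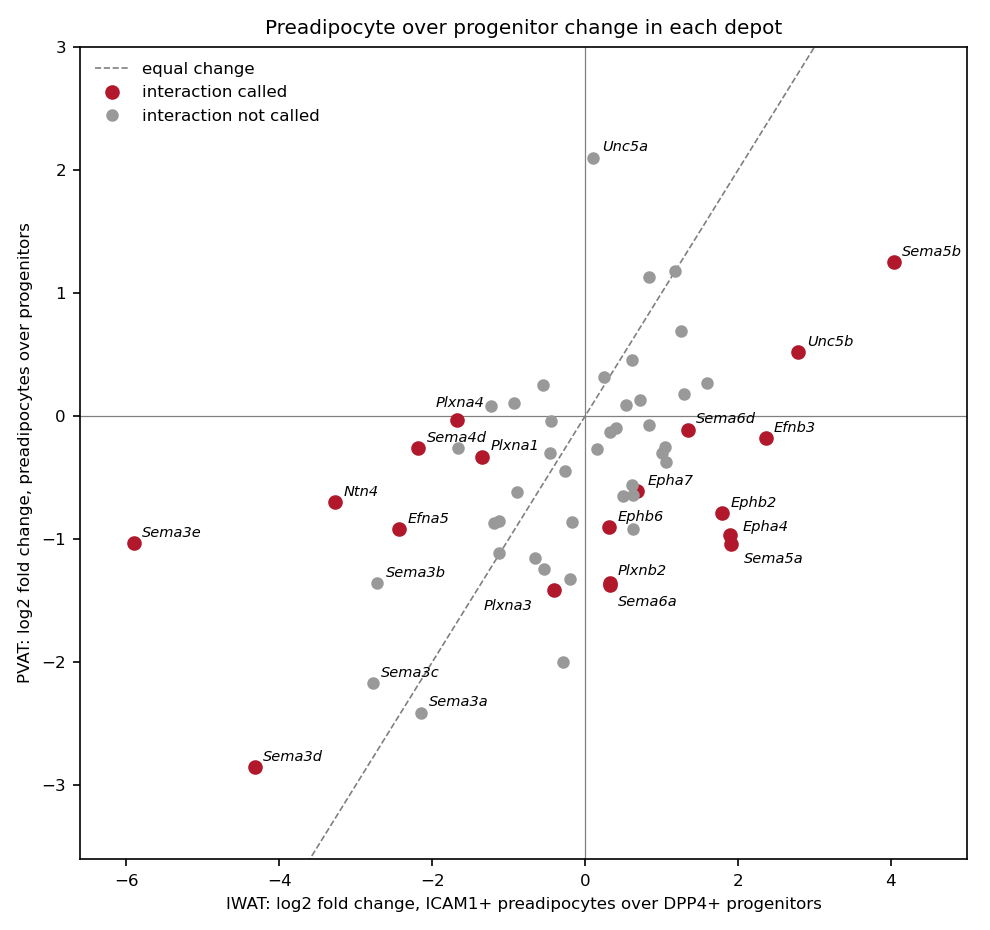
Log2 fold change of preadipocytes over progenitors in PVAT (vertical) and in IWAT (horizontal) for each of the 59 ligand or receptor genes tested, whatever its level. Red marks genes for which the difference between the 2 changes was called. Sema5b lies farthest right at 4.04 in IWAT, Sema3e farthest left at -5.90, and Sema3c and Sema3a lie low in both depots.

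Other genes of the pathways were taken as lists. Of 18 coreceptors and other receptors tested, 3 were higher and 8 lower in PVAT against DPP4+ progenitors, 2 and 6 in PVAT against ICAM1+ preadipocytes, 2 and 4 in PVAT preadipocytes against PVAT progenitors, and 2 and 6 in ICAM1+ preadipocytes against DPP4+ progenitors. In these comparisons, in this order, 13.0%, 23.5%, 16.8% and 9.34% of all genes tested were higher, and 11.8%, 21.4%, 16.1% and 8.61% lower. Chl1, an adhesion molecule that takes part in Sema3a signalling, had 0.885, 0.684 and 0.375 CPM in PVAT preadipocytes, 0.826, 0.518 and 0.812 in PVAT progenitors, 3.74, 4.26 and 4.63 in ICAM1+ preadipocytes and 29.9, 27.5 and 27.1 in DPP4+ progenitors. It differed between progenitors by -5.27 (SE 0.29, adjusted p = 1.41e-07), and no PVAT library reached an IWAT library.

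Of 17 other guidance ligands and ligand-binding surface proteins tested, 8 were higher and 2 lower in PVAT against DPP4+ progenitors, 4 and 5 in PVAT against ICAM1+ preadipocytes, 1 and 4 between stages in PVAT, and 6 and 3 between stages in IWAT. The shares of all genes higher, in the same order, were 13.0%, 23.5%, 16.8% and 9.34%, and those lower were 11.8%, 21.4%, 16.1% and 8.61%. Nell2, a ROBO3 ligand, had 25.8, 5.28 and 1.93 CPM in PVAT preadipocytes, 6.5, 5.76 and 6.82 in PVAT progenitors, 0.0613, 0.232 and 0.154 in ICAM1+ preadipocytes and 0.214, 0.683 and 0 in DPP4+ progenitors. Flrt3, which binds UNC5 and ROBO1, had 34.1, 20.9 and 18.6 CPM in PVAT preadipocytes, 50.9, 50.4 and 57.4 in PVAT progenitors, 44.4, 43.9 and 52.1 in ICAM1+ preadipocytes and 22.7, 23.4 and 18.9 in DPP4+ progenitors. Nell2 was found mainly in PVAT, and the stage order of Flrt3 was opposite in the depots (difference -2.22, SE 0.29, adjusted p = 0.000437).

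Of 51 intracellular effectors tested, 5 were higher and 12 lower in PVAT against DPP4+ progenitors, 3 and 22 in PVAT against ICAM1+ preadipocytes, 2 and 17 between stages in PVAT, and 3 and 10 between stages in IWAT. Over all genes, 13.0%, 23.5%, 16.8% and 9.34% were higher in these comparisons, in this order, and 11.8%, 21.4%, 16.1% and 8.61% lower. Mical2, an actin-oxidising enzyme of a family that acts below plexins, had 87.6, 24.3 and 23.8 CPM in PVAT preadipocytes, 38.0, 57.5 and 64.1 in PVAT progenitors, 36.1, 48.2 and 46.3 in ICAM1+ preadipocytes and 5.79, 8.35 and 5.0 in DPP4+ progenitors. Dpysl2, the collapsin response mediator of Sema3a, had 39.8, 22.2 and 17.1 CPM in PVAT preadipocytes, 50.7, 86.6 and 92.0 in PVAT progenitors, 109, 112 and 103 in ICAM1+ preadipocytes and 169, 143 and 146 in DPP4+ progenitors. Mical2 was lowest in the DPP4+ libraries and higher in PVAT progenitors by 3.06 (SE 0.47, adjusted p = 0.000432), whereas Dpysl2 was lowest in PVAT preadipocytes, by -2.03 against ICAM1+ preadipocytes (SE 0.29, adjusted p = 0.000178).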

How the data were processed

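RNA of 12 libraries was measured, 3 in each of 4 sorted populations, with same-numbered libraries sharing their pools of mice. Per the labels, minced tissue was treated with collagenase D and dispase II before sorting, and poly(A) RNA was turned into sequencing libraries with a SMART-Seq v4 kit for small inputs. The deposited file used here holds read counts per gene, not normalized. STAR 2.5.2a, DESeq2 1.26.0 and the mm10 build are named in the submitters' processing notes. How reads were counted, against which annotation and with what use of strand, is not given in the sources used here, so reads of overlapping genes may be shared. The deposited normalised and log-scaled tables were not used, and 0 columns lacked a sample.

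Counts were fitted with edgeR 4.0.16 (R 4.3.3) as 4 groups with no block, after filtering by expression (minimum count 10) to 18855 genes, with TMM scaling, the quasi-likelihood test and Benjamini-Hochberg adjustment over all genes. A gene was called at an adjusted p under 0.05. The SE is the size of the log2 fold change divided by the square root of the F statistic. Levels per kb use GENCODE M21 exon lengths, which matched 31074 of 31099 rows. Promoters came from a RefSeq table that held 60 of the members. Simulated counts with 200 changed genes were used to test the script.

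Alternatives were DESeq2 1.42.0, its size factors, library totals as the scale, no filter and a stricter filter, limma 3.58.1 (voom with sample weights), the pools as a block, 2 groups alone, each library left out, and 3 libraries left out together (PVAT progenitor 1, PVAT preadipocyte 1 and, for its mast cell markers, DPP4+ 2), a choice made after seeing the data. Per the labels, same-numbered libraries come from the same pools of mice. Their deviations from the group means correlated between -0.21 and 0.15 (median 0.01 over 18 pairs), and those of other pairs between -0.20 and 0.27 (median 0.01 over 36 pairs). P-values of the main fit measure the spread between the libraries within groups, taken over all 4 groups. Without a block they do not use the pairing by pool.

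Members were described by family. Values per library went to called members of at least 5 CPM in their highest group with the largest changes of their family, up to 3 in each direction, with means or exceptions where a result turned on them. Lists were given by counts with up to 3 called genes, plus Nrp1, Nrp2, Dcc and Neo1. Sema6c, Sema3a, Epha3 and Efnb1 were also named in comparisons where they were not called, with their values known. The members and lists were chosen with earlier results of these data known. Some listed cell type markers are not reported here and were left out of their list's sum.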

Additional observations from a re-analysis of the deposited data

Results flagged for a closer look

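The difference between the stage changes of the depots (PVAT minus IWAT, log2) was called by edgeR for 19 members. Those with a negative value were Sema5a (-2.95), Epha4 (-2.87), Sema5b (-2.79), Ephb2 (-2.58), Efnb3 (-2.54), Unc5b (-2.27), Sema6a (-1.70), Plxnb2 (-1.67), Sema6d (-1.45), Epha7 (-1.29), Ephb6 (-1.21) and Plxna3 (-1.01). Those with a positive value were Sema3e (4.87), Ntn4 (2.57), Sema4d (1.92), Plxna4 (1.65), Efna5 (1.51), Sema3d (1.47) and Plxna1 (1.02).

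The calls of Ephb6, Ntn4, Plxna1 and Plxna3 were lost in 10 of the 12 fits that left out 1 library, and that of Plxna4 in 9, that of Sema6d in 8, that of Plxnb2 in 6 and that of Sema3d in 3. With the pools as a block, Ephb6 (-1.21, adjusted p = 0.0834), Plxna1 (1.02, adjusted p = 0.0695) and Plxna3 (-0.98, adjusted p = 0.0837) were no longer called. The cause of these losses was not tested.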

How the results depend on the processing

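Of 113 called values of members with at least 5 CPM, 77 kept their call under every alternative run for them and 36 lost it under at least 1. There were 21 alternatives, of which 2 groups alone could not be run for the 19 calls on the difference between depots. The counts of members higher or lower moved by over 1.5 times as follows. The share of all genes called in that direction under the same setting is in brackets. For PVAT over DPP4+ progenitors, 23 were higher with library totals as the scale (33.5%), against 15 (13.0%). For PVAT over ICAM1+ preadipocytes, 16 were higher with voom (34.6%), against 8 (23.5%). For the PVAT stages, 8 were higher with voom (29.8%), 2 with the pools as a block (14.8%), 1 with 2 groups alone (9.18%) and 8 without the 3 libraries left out together (25.4%), against 4 (16.8%), and 7 were lower with 2 groups alone (7.0%), against 19 (16.1%). For the IWAT stages, 18 were higher with library totals (23.1%), 18 with voom (15.8%), 17 with 2 groups alone (16.7%) and 18 without the 3 libraries (12.6%), against 9 (9.34%). For the difference between depots, 4 were higher with library totals (3.83%), 12 with voom (22.7%) and 11 without the 3 libraries (19.9%), against 7 (6.37%), and 23 were lower with voom (21.8%) and 25 without the 3 libraries (20.2%), against 12 (8.66%). With 1 library left out at a time, the higher and lower counts ran from 11 to 17 and 10 to 13 for progenitors, 6 to 11 and 14 to 24 for preadipocytes, 1 to 6 and 12 to 24 for the PVAT stages, 9 to 12 and 13 to 17 for the IWAT stages, and 3 to 9 and 8 to 18 for the difference. The values that changed sign were ones not called in the report. Epha3 in preadipocytes was -0.95 with voom (adjusted p = 0.00247), -0.18 with the block and -1.45 without the 3 libraries (adjusted p = 0.000147; from -1.45 to 0.54 with 1 left out, the lowest called at adjusted p = 0.00249 without PVAT preadipocyte library 1), and from -1.86 to 0.14 between PVAT stages. Sema3a between progenitors was 0.32 with library totals and 0.05 without the 3 libraries (-0.18 to 0.00 with 1 left out), and Sema6c was -0.17 with voom and -0.64 without the 3 libraries (-0.70 to 1.44). Efnb1 was -0.13 between progenitors without the 3 libraries (-0.03 to 0.74 with 1 left out), 0.22 between preadipocytes with library totals and 0.04 with voom (-0.10 to 0.04), and 0.03, 0.31 and 0.31 between PVAT stages with library totals, with voom and without the 3 libraries (-0.38 to 0.28). Sema4c between IWAT stages was 0.18 with library totals. With the pools as a block, Efna2 (1.27, adjusted p = 0.0511), Robo2 (-1.22, 0.0556) and Unc5a (2.08, 0.0609) between PVAT stages, Ephb3 between progenitors (1.24, 0.0583), and Sema3e (1.75, 0.0862), Ephb6 (-0.72, 0.0671) and Plxna1 (-0.62, 0.0528) between preadipocytes also lost their calls, and it changed no other call of a named member beside those 7 and the 3 in the difference between depots, except that Ntn1 between progenitors (-1.01, 0.0336) and Neo1 between IWAT stages (-0.84, 0.0367) gained one. The cause was not tested. Library totals also moved the median of all genes to 0.12 between PVAT stages and -0.21 in the difference. With 2 groups alone, the PVAT stage calls of Epha1 (-0.85, adjusted p = 0.0677), Epha4 (-0.95, 0.0602), Ephb2 (-0.76, 0.0722), Nrp1 (-0.86, 0.0877), Nrp2 (0.99, 0.0604), Plxnb2 (-1.34, 0.0532), Sema4c (-1.30, 0.058) and Unc5a (2.13, 0.0506), those of Ephb3 (1.51, 0.0621) and Slit3 (1.17, 0.0617) between progenitors and that of Sema3e between preadipocytes (1.79, 0.114) were also lost. With library totals the PVAT stage call of Ephb2 (-0.63, 0.0763) was lost. The fold of Unc5a rests on 5 reads in ICAM1+ and 3 in DPP4+ libraries.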
